A study of Mus musculus with 24 samples.

Results

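The 38 genes described here encode collagens, laminins, fibrillins, matricellular glycoproteins, small proteoglycans and matrix-modifying enzymes. They were followed across ATAC-seq peak lists of mouse hindlimb muscle. Peaks of all 24 lists were merged into regions, the 459616 regions that at least 2 libraries called were kept, and a region was assigned to a gene when it overlapped the RefSeq gene body (mm10 build) or the 10 kb on either side. All 38 of 38 genes were found on the annotation, out of 34610 protein-coding and lncRNA genes, and 1146 of the 459616 regions lay in their loci. Of these regions, 8 lay in the loci of both Col4a1 and Col4a2, which adjoin each other, and were counted once in sums.

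ATAC-seq marks open chromatin by the places where the transposase Tn5 can insert adapters. The libraries came from male mice of the inbred strain FVB/NJ: adults, labelled P56 although the protocol gives an age of 3 to 4 months, and embryos shortly before birth (E18.5). Soleus and vastus intermedius, named slow-biased by the study, and gastrocnemius and vastus lateralis, named fast-biased, were each taken from 3 adults and from 3 litters. This gave 8 groups of 3 libraries, in which all 4 muscles of a replicate came from 1 adult or from 1 litter. A litter's sample pooled muscles of up to 5 male embryos, and nuclei were taken from whole undigested tissue, so fibre nuclei and nuclei of connective tissue, vessels and nerves are all represented. A region called more often at one stage can therefore reflect more nuclei of a cell type or more open chromatin per nucleus, and these cannot be told apart.

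Skeletal muscle fibres are wrapped in a basement membrane of laminins and collagen IV, which lies within an interstitial matrix of fibrillar collagens. Collagen VI links these layers, and fibrillins, elastin and fibronectin give the matrix elasticity and attachment sites. Most interstitial matrix is made by fibroblasts, whereas basement membrane components are made by muscle fibres, endothelium and Schwann cells as well.

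A list records only whether a peak was called, so the values below are numbers of libraries calling a region or numbers of regions called. The lists held 115333 to 228137 peaks. Lists averaged 166593 ± 16643 peaks in the adults and 167856 ± 22855 in the litters (SD, n = 3 each, over the means of 4 muscles), and litter 3 had the shortest lists of the 6 (143993 peaks). The 10 muscle fibre marker genes held 91 to 139 called regions in adult libraries and 41 to 80 at E18.5, and none of these loci was without a call at either stage. Ttn had a mean of 67.5 regions in adults and 13.0 at E18.5, most of that drop, with Myh1, Myh2 and Myh4 also lower at E18.5, whereas Ckm (5.42 and 6.33), Tnnt3, Acta1 and Tnnt1 had slightly higher means there. The peak lists carry dates that set adult 1 and litter 1 apart from the other animals of their stage, and the stages share no date, so date and stage cannot be told apart.

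Start-site sequence of 3 members is shown first: Col1a2, whose start was called in nearly every library, and Col3a1 and Postn, whose starts had more E18.5 than adult calls. The 250 bases before the RefSeq start of Col1a2 and Col3a1 and a 30-base stretch before the second start of Postn are printed 5′ to 3′ from the RefSeq promoter table (GRCm38.p6, plus strand). Col1a2 encodes the second chain of collagen I, Col3a1 the chain of collagen III, and Postn the matricellular protein periostin. Capitals mark a match to CCAAT in Col1a2 and to TATAAA in Col3a1 and Postn. The Col1a2 window is chr6:4505368-4505617, the Col3a1 window chr1:45311288-45311537, and the Postn stretch chr3:54361069-54361098.
Col1a2: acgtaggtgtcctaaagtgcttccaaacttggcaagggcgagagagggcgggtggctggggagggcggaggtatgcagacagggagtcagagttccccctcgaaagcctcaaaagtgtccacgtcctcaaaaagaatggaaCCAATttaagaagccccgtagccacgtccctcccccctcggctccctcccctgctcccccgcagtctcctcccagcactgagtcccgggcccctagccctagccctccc
Col3a1: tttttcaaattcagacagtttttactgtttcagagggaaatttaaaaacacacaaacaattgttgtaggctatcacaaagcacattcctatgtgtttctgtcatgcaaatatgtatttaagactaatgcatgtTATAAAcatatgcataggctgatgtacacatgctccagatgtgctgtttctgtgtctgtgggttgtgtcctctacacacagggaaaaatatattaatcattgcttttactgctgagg
Postn: agcccagagctaTATAAActcagctctcca

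The TATAAA match lies 26 bases before the second Postn start and 117 bases before the Col3a1 start, and the CCAAT match lies 109 bases before the Col1a2 start. Searching both strands of the 250 bases before each start, TATAAA was found in 12.4% of all 32851 windows and in 5 of 25 member windows. CCAAT was found in 33.8% of all windows and in 7 member windows, and the GC box GGGCGG in 32.7% and in 13. The Tnc windows overlap, so the same TATAAA and GC box matches count in both. These matches describe the letters and are not evidence of binding.

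The table held windows for 22 of the 38 genes, 25 windows in all. The table had no entry for Col1a1, Col5a2, Col12a1, Col14a1, Lama4, Lamc1, Fn1, Fbn2, Thbs1, Eln, Comp, Dcn, Lum, Lox, Loxl2 and Mmp2. A region over the window was called in all 24 libraries for 15 of the 25 windows (60.0%), against 36.9% of the 32851 windows of all genes. Those 15 windows lay over 12 distinct regions. The Tnc windows shared a region, as did the Col6a2 windows and those of Col4a1 and Col4a2. The remaining 10 windows were called in more E18.5 than adult libraries, and 0 in more adult libraries; over all windows these shares were 21.2% and 8.27%. Of the 47 member regions described below as higher at E18.5, 1 lay over such a window. Only 5 of the 22 member regions over a window could be tested, since the others had too many calls to reach the threshold.

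Postn, which is known for its expression in developing and healing connective tissue, has a pair of RefSeq starts. The region over its upstream start window (chr3:54359017-54359266) was called in 11 of the adult libraries and in every E18.5 library. The region over the second start (chr3:54359848-54361383), which contains the printed stretch, was called in 1 adult library, of gastrocnemius, and in all 12 E18.5 libraries (two-sided Fisher's exact test, adjusted p = 0.00113). Among the 5 testable start-window regions of members it was the only one past the threshold. The annotation also places the lncRNA gene Gm31095 there, so the region cannot be given to Postn alone.

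The region over the Col3a1 start was called in 5 of 12 adult libraries and 12 of 12 at E18.5 (Fisher's exact test, p = 0.00458, adjusted p = 0.0566), which misses the threshold. The Col1a2 start region was called in 11 adult and 12 E18.5 libraries. Col19a1 had 7 adult and 12 E18.5 calls over its start, Thbs4 8 and 12, Col6a1 9 and 12, Bgn 6 and 10, and Fmod 4 and 9. The Col19a1, Bgn and Fmod regions did not pass the threshold. The Col1a2, Thbs4 and Col6a1 regions had too many calls to be tested. At the starts of Col4a1, Col4a2, Col15a1, Col5a1, Lama2, Lamb1, Fbn1, Sparc, Thbs2, Tnc, Vcan, Mmp14 and Col6a2 every library had a call.

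**Figure D1:**
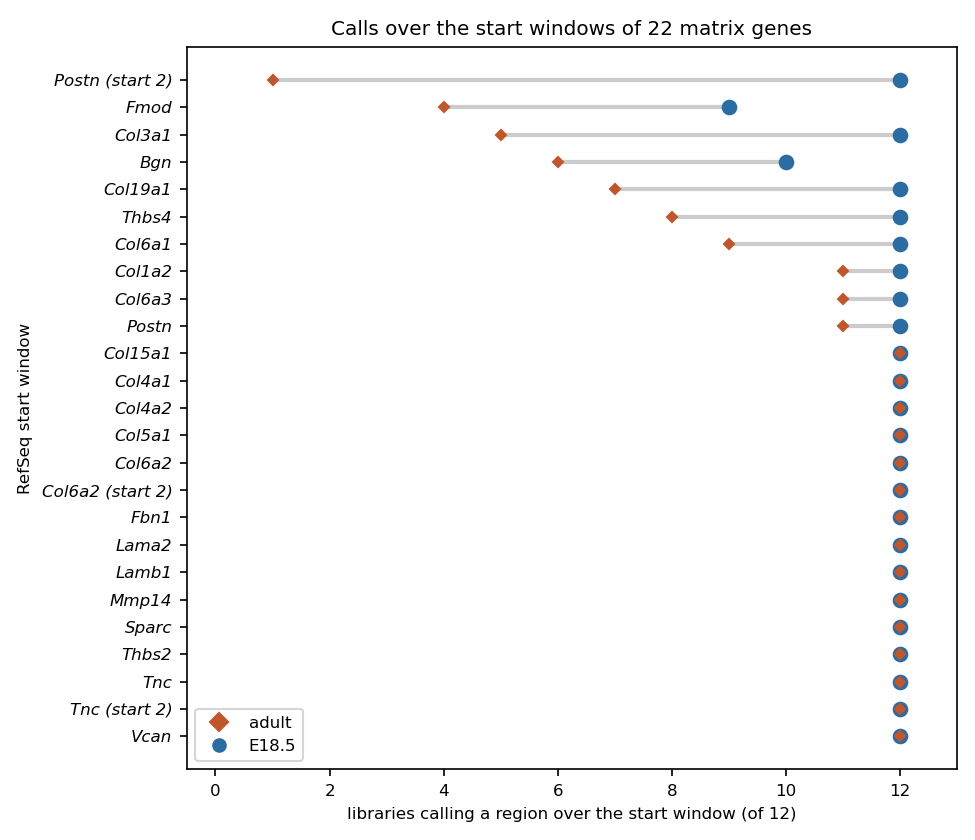
Number of libraries (x axis, of 12 per stage) with a region called over the start window of 22 matrix genes (y axis; a gene with 2 windows has 2 lines). Diamonds are adult and circles E18.5 libraries: 15 windows sit at 12 and 12, and the second Postn start is farthest apart, at 1 and 12.

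The first comparison asked how the regions of these genes differ between E18.5 and adult muscle. Member regions were called more often at E18.5. Of 521 member regions with enough calls to be tested, 47 (9.02%) rose at E18.5, against 4.55% of all 170267 tested regions, and 5 (0.96%) were higher in the adult, against 1.55% (Fisher's exact test over 12 against 12 libraries, Benjamini-Hochberg adjusted p under 0.05). The other member regions had too few or too many calls to reach the threshold. The 12 libraries of a stage come from 3 animals or litters, so these p-values are too small; counting an animal as calling a region when at least 2 of its 4 muscles did, 52 of 825 member regions (6.30%) were called in 3 of 3 litters and 0 of 3 adults, against 3.41% of all regions, and 34 of the 47 were among the 52. The reverse held for 9 (1.09%), against 1.64%.

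Of the 47 regions, 18 passed whichever 1 animal or litter was left out. The 47 regions lay in 21 of the 38 loci, 36 of them inside a gene body, and 13 loci had no region past the threshold in either direction. When each list was cut to a random draw of 115333 peaks, the length of the shortest, 6 member regions passed at E18.5 (1.19%, against 0.539% of all tested regions) and 0 in the adult. The count at E18.5 was 19 without litter 1, 23 without adult 1 and 31 without litter 2. It was 5 when adult 1 and litter 1 were both left out. Without litter 1 the shares were 2.71% of member regions and 1.10% of all regions, and without adult 1 they were 3.27% and 1.59%. For the counts of 31 and 5 these shares are not given here, so the member excess cannot be judged in those runs.

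Some regions were called in 1 stage only. Among member regions, 159 (13.9%) were called only at E18.5 and 110 (9.60%) only in the adult, whereas over all regions the order was opposite, 10.3% and 14.9%. In 3 member regions all 12 E18.5 libraries and 0 adult libraries had a call (0.576% of those tested, against 0.174% of all regions). The reverse pattern occurred in 0 member regions, against 0.0623% of all. The 3 regions lay in Col12a1 (chr9:79711911-79712398), in Col19a1 (chr1:24553495-24554361) and 120 bp beyond the end of Thbs1 (chr2:118127253-118129457), each with an adjusted p of 0.000312.

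Per library, 280 to 403 member regions were called in the adult (median 329.5) and 299 to 583 at E18.5 (median 471.5). Adults 1, 2 and 3 averaged 328.25, 353 and 336.5 member regions over their 4 muscles. Litters 1, 2 and 3 averaged 509.5, 469.75 and 356. All 3 litters were above all 3 adults, but litter 3 lay above adult 2 by less than the SD of the adults. The means were 339 ± 12.6 and 445 ± 79.7 (SD, n = 3 each), a ratio of 1.31, while the ratio over all regions was 1.09. Per 10000 regions called in the same library, adults had 26.9 ± 1.50 member regions and litters 32.2 ± 2.86, a ratio of 1.20. With 3 against 3, an exact permutation test cannot give a p under 0.1.

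**Figure D2:**
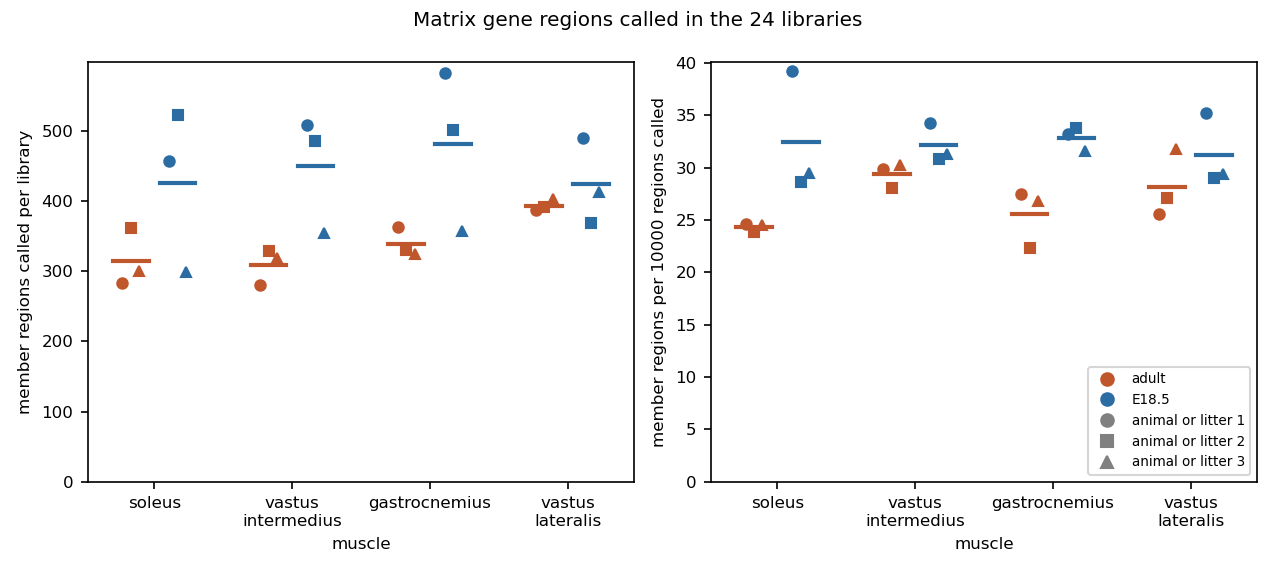
Member regions called in each library (left, number; right, per 10000 regions called in that library) for the 4 muscles (x axis). Points are libraries, shaped by animal or litter, and lines are means of 3. E18.5 libraries reach 583 and adult ones 403, and the 3 litters of vastus lateralis overlap the adults on the left.

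The stage difference varied in size among muscles. The E18.5 to adult ratio of member regions called was 1.45 for vastus intermedius, 1.42 for gastrocnemius, 1.35 for soleus and 1.08 for vastus lateralis. Per 10000 called regions the ratios were 1.09, 1.28, 1.33 and 1.11 in the same order, so vastus intermedius went from the highest to the lowest. Adult vastus intermedius lists were the shortest of the adult lists (130608 ± 15031 peaks). In vastus lateralis, adults 1 to 3 together averaged 394 ± 8.33 member regions and the litters 424 ± 61.2 (SD, n = 3). The adult value there was the highest of the 4 adult muscles, and vastus lateralis lists were also the longest adult lists (187519 ± 31634 peaks). Of regions called in at least 3 of a muscle's 6 libraries, 60 of 414 in gastrocnemius (14.5%, against 7.65% of all) and 52 of 367 in vastus intermedius (14.2%, against 8.31%) were called in 3 of 3 litters and 0 of 3 adults. Soleus had 36 of 335 such regions (10.7%, against 6.29%) and vastus lateralis 27 of 400 (6.75%, against 4.37%). In the opposite direction there were 5 member regions in soleus (1.49%, against 2.28% of all) and 7 in vastus intermedius (1.91%, against 2.9%). Gastrocnemius had 7 (1.69%, against 3.02%) and vastus lateralis 18 (4.50%, against 4.6%). Whether the muscles differ in the stage difference was not tested.

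The stage ratio of called regions differed in size between roles, which was not tested. The E18.5 to adult ratio of called regions was 2.00 for fibril-associated collagens, 1.55 for cross-linking and proteolytic enzymes, 1.44 for fibrillar collagens, 1.39 for glycoproteins, 1.20 for proteoglycans, 1.19 for collagen VI and 1.11 for the basement membrane. Per 10000 called regions it was 1.86 for fibril-associated collagens and 1.00 for the basement membrane. At the level of a gene, regions called per library were averaged over the 4 muscles of each animal. By these means 16 of 38 loci (42.1%) had all 3 litters above all 3 adults, against 13.9% of 32823 genes with a region. Those genes were not matched to the members by number of regions per locus. In 2 loci (5.26%), Sparc and Mmp2, all adults were above all litters, against 5.19% of genes. The remaining 20 overlapped. Litter 3 had the fewest member regions of the litters; without it 25 loci had the litters above the adults, against 33.7% of genes. When the lists were cut to equal length, 18 loci had all litters above and 15 of the 16 stayed among them. The share over all genes in that setting is not given here, so the 18 cannot be set against a background.

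**Figure D3:**
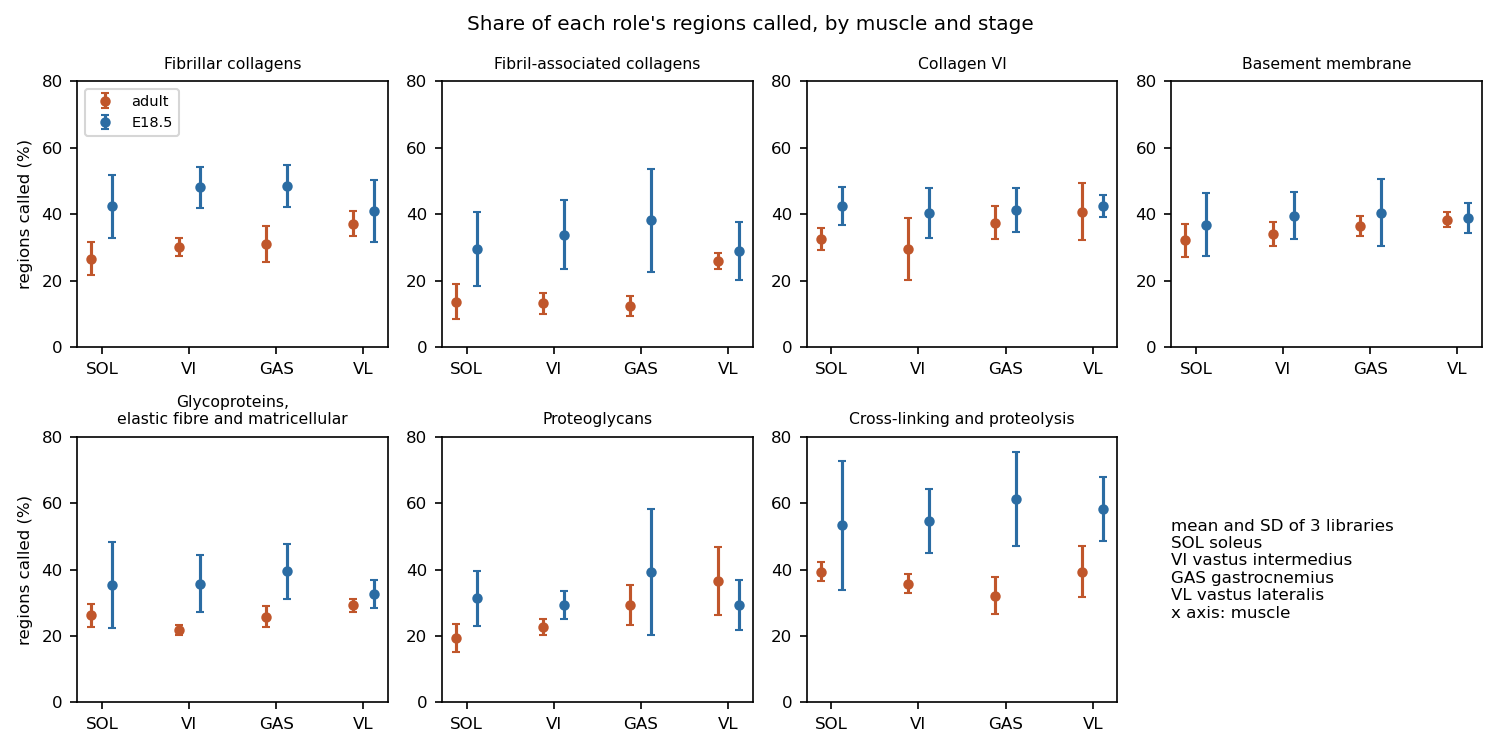
Share of each role group's regions called (y axis, %) in the 4 muscles (x axis), as mean and SD of 3 libraries, adult and E18.5. The bars of fibrillar collagens lie apart between stages in soleus, vastus intermedius and gastrocnemius, and those of the basement membrane group overlap in every muscle.

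Fibrillar collagens, which assemble into the tensile fibrils of interstitial matrix, had all litters above all adults at 4 of 5 loci, against 13.9% of all genes. Summed over the 5 genes, 43.8 ± 1.61 of 140 regions were called in adults and 63.0 ± 8.44 in litters (SD, n = 3), and 7 of 76 tested regions (9.21%, against 4.55% of all) rose at E18.5 while 0 were higher in the adult (against 1.55%). At Col1a2 adults 1, 2 and 3 averaged 2.5, 3.5 and 1.25 of 15 regions called, and litters 1, 2 and 3 averaged 9.25, 7.5 and 6. The lowest litter was above the highest adult, and the means, 2.42 ± 1.13 and 7.58 ± 1.63 (SD, n = 3), differ 3.14-fold. Beyond the start, 3 regions inside the gene rose. The one at chr6:4530708-4531800 was called in 1 adult and 11 E18.5 libraries (Fisher's exact test, adjusted p = 0.00534), and the one at chr6:4507059-4507998, 1910 bp after the start by its midpoint, in 0 and 8 (adjusted p = 0.0266). The latter call was lost without litter 1, litter 3 or any 1 adult.

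Col3a1 gave 3.25, 2.75 and 4.75 of 18 regions in the adults and 10.75, 8.75 and 9.25 in the litters. Again the groups did not overlap, and the ratio of means was 2.67. Among single libraries the adults ran from 0 to 10 with a median of 3. Adult vastus lateralis 3 (10) and adult vastus intermedius 3 (6) reached the E18.5 range of 6 to 13. A wide region inside the gene (chr1:45320014-45322672) was called in 0 adult and 10 E18.5 libraries, and one beyond the gene end (chr1:45354670-45355489) in 2 and 12 (Fisher's exact test, adjusted p = 0.00415 for both). Col3a1 and Col5a2, which encodes a chain of the fibril-nucleating collagen V, are neighbours on chromosome 1. Col5a2 had all litters above all adults (2.42 ± 0.144 and 5.08 ± 1.89 of 14 regions) but 0 of its 5 tested regions passed.

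Col1a1, the other collagen I chain, had narrower ranges, 5.5 to 6.5 of 16 regions in adults and 7.5 to 8 in litters. Its region at chr11:94933248-94934356, 1868 bp outside the gene body and within the lncRNA gene Gm46293, was called in 0 adult and 11 E18.5 libraries (Fisher's exact test, adjusted p = 0.00113). Col5a1 was the fibrillar locus whose animals overlapped, at 28.25 to 30.25 of 77 regions in adults and 28.75 to 36.75 in litters. Its only region past the threshold (chr2:28033698-28034913) was called in 4 adult and 12 E18.5 libraries (exact test, adjusted p = 0.0266). That call was lost with the animal as the unit, and without adult 1, adult 2 or any 1 litter. The loci with few adult calls, Col1a2, Col3a1 and Col5a2, had the larger ratios, but adult calls are the denominator of these ratios.

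**Figure D4:**
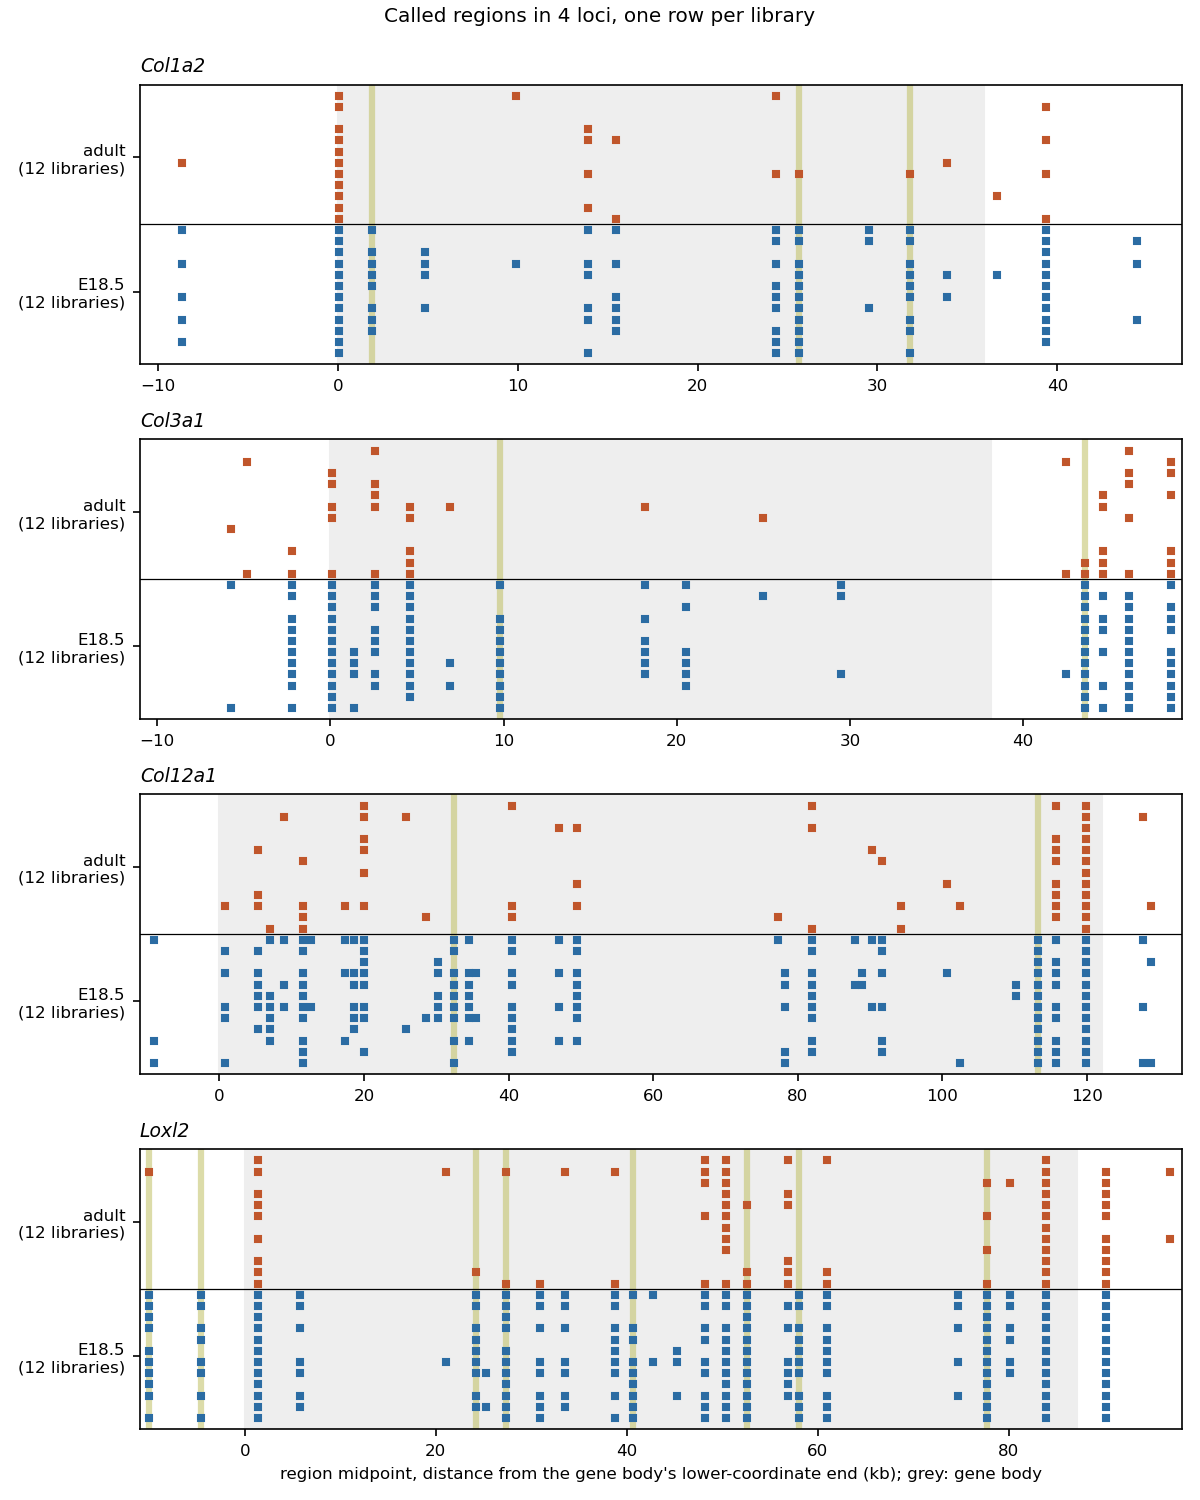
Regions called (squares) in each of 24 libraries (rows; adults above the line, E18.5 below) along Col1a2, Col3a1, Col12a1 and Loxl2; the x axis is the distance in kb from the gene body's lower-coordinate end, and grey marks the gene body. Yellow lines mark the 3, 2, 2 and 8 regions that rose at E18.5, most of which hold 0 to 2 adult calls.

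Fibril-associated collagens sit on the surface of collagen fibrils. Their 3 loci had 21.4 ± 3.71 of 131 regions called in adults and 42.8 ± 14.0 in litters, and 9 of 52 tested regions (17.3%, against 4.55% of all) rose at E18.5. The spread among litters was wide, at 57, 42.25 and 29 regions, yet each was above the adults' 20.5, 25.5 and 18.25. Vastus lateralis was again closest, with a ratio of 1.12, against 3.06 in gastrocnemius.

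Col19a1, a collagen with a described role in muscle differentiation, averaged 6.75, 6.75 and 6 of 45 regions in adults and 15.5, 13 and 8.25 in litters, without overlap. Of its regions 4 rose at E18.5. Besides the region separated completely between stages, 33509 bp into the gene from its start, the region at chr1:24516639-24518444 was called in 0 adult and 10 E18.5 libraries (Fisher's exact test, adjusted p = 0.00415). Col14a1, which binds fibrils in interstitium and tendon, averaged 8.25, 13.75 and 8.25 of 51 regions in adults and 21.75, 16 and 12 in litters, so adult 2 lay above litter 3. At Col14a1 3 regions rose, among them chr15:55380789-55382094 with 1 adult and 12 E18.5 calls (exact test, adjusted p = 0.00113) and chr15:55436778-55437943 with 0 and 9 (adjusted p = 0.0113; lost without adult 1 or litter 1).

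Col12a1, which bridges fibrils in muscle and tendon, was singled out after its values were seen. It averaged 5.5, 5 and 4 of 35 regions in adults and 19.75, 13.25 and 8.75 in litters, a ratio of 2.88. The fully separated region of 488 bp at chr9:79711911-79712398 passed the threshold in all 17 alternative settings, which no other member region did. Some of these settings leave the test of a region as it is. A further region at chr9:79631039-79631888 had 0 adult and 9 E18.5 calls (exact test, adjusted p = 0.0113) and lost its call without adult 1 or litter 1.

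Collagen VI, a microfibrillar collagen at the border of basement membrane and interstitium whose loss causes muscle disease, had a stage ratio of 1.19. The 3 loci had 28.1 ± 4.26 of 80 regions called in adults and 33.3 ± 4.37 at E18.5, and at none did the litters stand clear of the adults. Col6a3 averaged 15, 16.25 and 13 of 44 regions in adults and 18.25, 19 and 15.5 in litters. Still, 2 Col6a3 regions rose: chr1:90763647-90765098, 1762 bp past the gene end in the annotated gene Gm41918, with 0 and 11 calls, and chr1:90834455-90835584 inside the gene with 1 and 12 (Fisher's exact test, adjusted p = 0.00113 for both). Col6a1 averaged 6, 8.25 and 4.5 of 18 regions in adults and 8.25, 9.5 and 7.25 in litters, and its region chr10:76714093-76715849 was called in 2 and 11 libraries (exact test, adjusted p = 0.0168). The Col6a1 call was lost with the animal as the unit, and without adult 1, adult 3, litter 1 or litter 2. Col6a2 had 0 regions past the threshold of 6 tested, with 7.08 ± 0.804 and 7.42 ± 1.46 regions called.

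Among basement membrane genes the litters and adults overlapped. Of 362 regions, 128 ± 7.75 were called in adults and 141 ± 22.3 in litters (SD, n = 3), and litter 3 (115.75) was below every adult (118.75, 131.5 and 132.75). Of 169 tested regions 6 (3.55%, against 4.55% of all) rose at E18.5 and 3 were higher in the adult, a share near the 1.55% of all regions. The collagen IV genes Col4a1 and Col4a2, which are transcribed away from each other from adjoining starts, shared 1 region over both starts (chr8:11311648-11314190) that every library called. Col4a1 averaged 25.3 ± 2.61 of 55 regions in adults and 26.4 ± 3.33 in litters, and Col4a2 32.3 ± 0.433 and 32.0 ± 4.99 of 70.

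The adult-higher regions of the group lay in Col4a1, Col15a1 and Lamc1. These were named after their values were seen. At Col4a1, chr8:11270708-11271590 was called in 11 adult and 1 E18.5 libraries (Fisher's exact test, adjusted p = 0.00534), within the lncRNA gene Gm32709 as well. At Col15a1, a collagen of the outer basement membrane, chr4:47275852-47277337 was called in 9 and 0 (exact test, adjusted p = 0.0113), overlapping Gm52734. At Lamc1, the laminin gamma chain shared by most laminins, chr1:153280199-153281068 was called in 9 and 0 (exact test, adjusted p = 0.0113). The Col15a1 call was lost without adult 2, litter 1 or litter 2, and the Lamc1 call without litter 1 or litter 2. Col15a1 had equal means, 21.8 regions called at each stage, and Lamc1 had 22.8 ± 2.70 in adults and 21.0 ± 2.63 in litters.

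Lamb1, the laminin beta chain prominent in development, was the basement membrane locus whose litters did not overlap the adults. Adults averaged 8.75, 8.25 and 7 of 30 regions and litters 15.25, 15 and 11.5. Of its 18 tested regions 3 rose at E18.5, including chr12:31290689-31292863 with 2 and 12 calls (Fisher's exact test, adjusted p = 0.00415) and chr12:31299254-31300847 with 4 and 12 (adjusted p = 0.0266). None of the 3 passed with the animal as the unit, and the last was also lost without adult 1, adult 2 or any 1 litter. Lama2, the alpha chain of adult muscle laminin whose loss causes congenital muscular dystrophy, averaged 8.75, 12.5 and 12.25 of 60 regions in adults and 17.25, 13.25 and 10.5 in litters, which overlap. Lama2 had 2 regions that rose, chr10:27377976-27378928 with 4 and 12 calls and chr10:27435611-27436307 with 0 and 8 (exact test, adjusted p = 0.0266 for both). The former was lost with the animal as the unit and without adult 2 or any 1 litter, and the latter without litter 1 or any 1 adult. With adults 2 and 3 against litters 2 and 3 its stage difference changed sign, to -0.375 regions. Lama4, the alpha chain of vessels and embryonic muscle, had 10.1 ± 1.46 of 45 regions in adults and 15.1 ± 3.40 in litters, with overlap, and 1 region that rose.

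Glycoproteins of the elastic fibre and the matricellular family rose at 12 of 141 tested regions (8.51%, against 4.55% of all) and were higher in the adult at 1 (against 1.55% of all). Of 328 regions, 85.75, 84 and 84 were called in the adults and 118 ± 22.5 in litters. At 6 of 11 loci (against 13.9% of all genes) the litters were clear of the adults: Fbn1, Fbn2, Tnc, Postn, Thbs1 and Thbs2. Fbn1, the main fibrillin of microfibrils, averaged 24, 21.25 and 22.25 of 86 regions in adults and 35, 40 and 25.5 in litters. Litter 3 was closest to the adults. Regions at chr2:125420616-125422346 and at chr2:125292278-125293284, beyond the gene's end, were each called in 2 adult and 11 E18.5 libraries (Fisher's exact test, adjusted p = 0.0168). Both calls were lost without litter 1 or litter 2, the former also without adult 2 and the latter without adult 3.

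Fbn2, the fibrillin made mainly before birth, averaged 6.25, 5.75 and 6.25 of 46 regions in adults and 15, 13.75 and 7 in litters. All litters were above the adults, litter 3 by less than 1 region. Of the 3 regions that rose there, chr18:58064280-58066066 had 2 and 12 calls and chr18:58113665-58114583 had 0 and 10 (Fisher's exact test, adjusted p = 0.00415 for both). Tnc, which encodes tenascin-C of developing tendon and regenerating muscle, had 6.08 ± 0.382 of 36 regions in adults and 10.9 ± 3.21 in litters. Of Tnc, 2 regions rose, both inside 8030451A03Rik, a gene annotated over the same span; both were lost without adult 1 or litter 1, and 1 of them with the animal as the unit. Postn averaged 3, 1.75 and 1.5 of 9 regions in adults and 6, 3.5 and 4 in litters.

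Among thrombospondins, Thbs1 averaged 3, 2.5 and 2.75 of 13 regions in adults and 6.75, 5.5 and 4.5 in litters, and Thbs2 7.92 ± 0.946 and 10.1 ± 0.382 of 22. Thbs4, a thrombospondin of muscle and tendon attachment, overlapped between stages (7.67 ± 0.629 and 9.25 ± 2.41 of 32). Thbs2 and Thbs4 had 0 regions past the threshold. Fibronectin (Fn1), elastin (Eln) and Comp, the cartilage oligomeric matrix protein, overlapped too; only Comp had a region that rose, chr8:70389562-70390211, which lies inside the neighbouring gene Crtc1 and lost its call without litter 1 or any 1 adult.

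Sparc, a collagen-binding matricellular protein, went the other way. Adults averaged 10, 10 and 9.5 of 19 regions called and litters 9, 8.5 and 8.25, without overlap, and the difference of the means (E18.5 minus adult) was -1.25 regions. Its region chr11:55409988-55411163 inside the gene was called in 11 adult libraries and 0 at E18.5 (Fisher's exact test, adjusted p = 0.00113). When lists were cut to equal length, 0 member loci had adults clear above litters, so adults and litters overlapped at Sparc and Mmp2 in that setting.

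**Figure D5:**
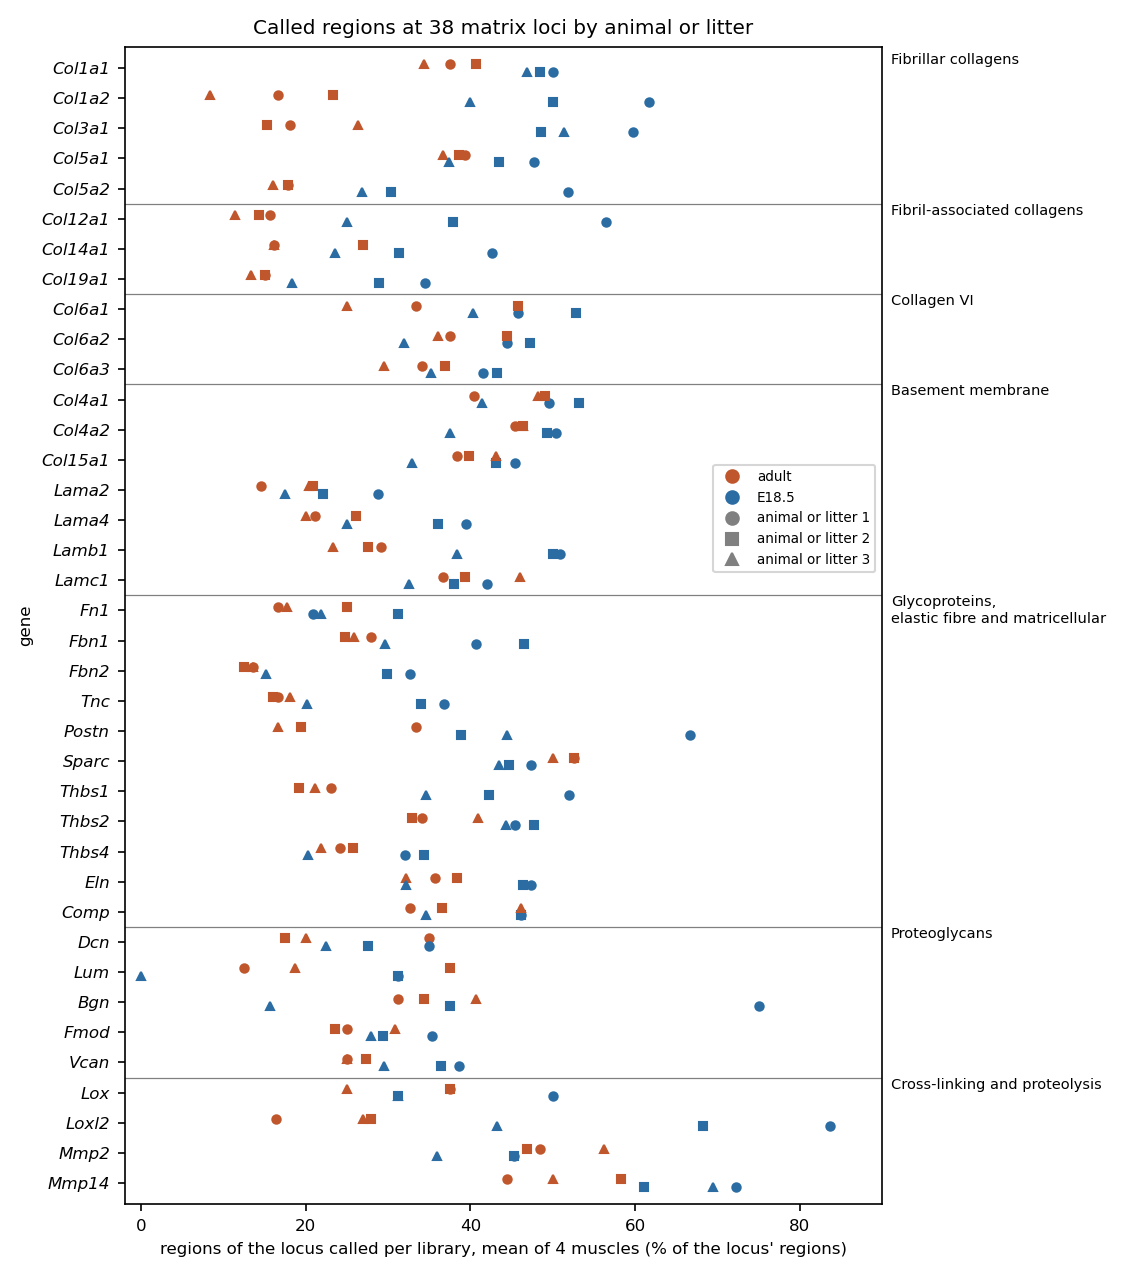
Regions called per library as a share of the locus' regions (x axis, %, mean of 4 muscles) for each adult and each litter at 38 loci (y axis) grouped by role. All 3 litters lie right of all 3 adults at 16 loci, among them Col1a2, Col3a1, Col12a1 and Loxl2, and left of them at Sparc and Mmp2.

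Proteoglycans gave few regions: of 50, adults averaged 13.5, 13 and 14 called and litters 21, 16 and 11.5. Of 23 tested regions, 1 was higher at E18.5 (4.35%, against 4.55% of all) and 1 in the adult (against 1.55%). Both lay at Bgn, which encodes biglycan, a small leucine-rich proteoglycan that binds collagen. A region 349 bp beyond the gene (chrX:73496285-73497383) was called in 10 adult and 0 E18.5 libraries (Fisher's exact test, adjusted p = 0.00415), and one 8535 bp before it (chrX:73474289-73475066) in 0 and 8 (adjusted p = 0.0266). The latter call was lost with the animal as the unit, with adjustment over all kept regions, and without litter 1, litter 2 or any 1 adult. Bgn averaged 2.5, 2.75 and 3.25 of 8 regions in adults and 6, 3 and 1.25 in litters. Litter 1 was above all adults and litter 3 below all of them. Without litter 1 the stage difference turned to -0.708 regions, and with adults 2 and 3 against litters 2 and 3 to -0.875.

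Vcan, the large proteoglycan versican of provisional matrix, averaged 2.75, 3 and 2.75 of 11 regions in adults and 4.25, 4 and 3.25 in litters. The groups did not overlap, but only 2 of its regions were testable and 0 passed. Decorin (Dcn), lumican (Lum) and fibromodulin (Fmod), fibril-binding proteoglycans, overlapped between stages and had 0 regions past the threshold. At Lum, 0 of 4 regions were called in any muscle of litter 3, which does not show closed chromatin.

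Cross-linking and proteolytic enzymes had the largest share of regions that rose, 9 of 26 tested (34.6%, against 4.55% of all), and 8 of the 9 lay at Loxl2. Loxl2 encodes a lysyl oxidase-like enzyme that cross-links collagen. Adults averaged 4.25, 7.25 and 7 of its 26 regions and litters 21.75, 17.75 and 11.25. Single adult libraries ran from 2 to 12 (median 6) and E18.5 libraries from 7 to 24 (median 18). The groups of animal means did not overlap and the ratio of means was 2.74. Of its 17 tested regions, chr14:69666259-69667251 was called in 0 adult and 10 E18.5 libraries (Fisher's exact test, adjusted p = 0.00415) and chr14:69648379-69650269 in 0 and 9 (adjusted p = 0.0113). With the animal as the unit 4 of the 8 did not pass. Only chr14:69666259-69667251 passed whichever 1 animal or litter was left out. The call at chr14:69648379-69650269 was lost without adult 1 or litter 1. Of the 8, 4 also overlapped Gm27177, another annotated gene.

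Mmp14, a membrane-bound metalloproteinase that cleaves collagen and activates Mmp2, averaged 4, 5.25 and 4.5 of 9 regions in adults and 6.5, 5.5 and 6.25 in litters. The groups did not overlap, although litter 2 lay close to adult 2. Its region chr14:54445381-54446171, 2925 bp past the gene end, was called in 1 and 10 libraries (Fisher's exact test, adjusted p = 0.0168), a call lost without adult 1, adult 3 or litter 1. Mmp2, a secreted gelatinase, averaged 7.75, 7.5 and 9 of 16 regions in adults and 7.25, 7.25 and 5.75 in litters, with 0 of 6 tested regions past the threshold. Lox, the main lysyl oxidase, had 4 regions, of which 1.33 ± 0.289 were called in adults and 1.50 ± 0.433 in litters.

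The second comparison asked whether slow-biased and fast-biased muscles differ in these loci. In adults, no gene passed after adjustment (0 of 32823; exact permutation of 6 against 6 libraries, two-sided, smallest possible p 0.00216). At an unadjusted p under 0.05, 7 members (18.4%, against 6.82% of all genes) had fewer regions called in slow-biased libraries and 0 had more (against 0.308%). The 7 were Lamb1, Sparc, Col6a1, Vcan, Thbs2, Lamc1 and Thbs1, named after their values were seen. With libraries permuted only within animals there were 5 (13.2%, against 5.95%) and 0 with more (against 0.235%), and 0 of 32823 genes passed after adjustment. The smallest p that permutation within animals allows is 0.00926, so passing after adjustment was hardly possible.

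Lamb1 had the lowest p. Its called regions ran from 4 to 8 (median 5.5) in slow-biased and from 6 to 13 (median 10.5) in fast-biased adult libraries, with means of 5.83 ± 1.47 and 10.2 ± 2.48 (SD, n = 6, exact permutation p = 0.0108, adjusted p = 0.538). Col6a1 ran from 3 to 8 (median 4) and from 6 to 10 (median 8; exact permutation p = 0.0281, adjusted p = 0.610). Both ranges overlap, although every adult had a lower slow-biased than fast-biased mean at both genes. Slow-biased adult libraries had shorter lists as well, with 117540 ± 19594 kept regions called against 137124 ± 12398. Scaled to 10000 called regions, 1 member (2.63%, against 2.85%) was lower in slow-biased libraries, Lamb1, and 1 was higher, Lama4 (against 3.67%). The other 6 of the 7 genes did not pass after scaling.

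At E18.5, 0 of 38 members differed at an unadjusted p under 0.05 in either direction (fast-biased higher in 0.871% of all genes and slow-biased in 0.253%), and 0 genes passed after adjustment. Permuted within litters, again 0 members differed (against 0.844% and 0.219%). By single region, 0 passed after adjustment at either stage. Fisher's exact test of 6 against 6 libraries cannot give a p under 0.00216. Adjusted over 48133 adult or 49905 E18.5 regions, that threshold could hardly be passed. At an unadjusted p under 0.05 in adults, 4 of 146 testable member regions (2.74%, against 0.472% of all) were higher in slow-biased libraries and 3 (2.05%, against 2.88%) in fast-biased ones. At E18.5 the counts were 1 of 164 (0.61%, against 0.234%) and 0 (against 0.591%). Whether fibre bias differences changed between stages was not tested.

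The same comparison by stage for 58 other matrix genes, a list chosen with earlier results known, gave 48 of 725 tested regions (6.62%) that rose at E18.5 and 6 (0.828%) in the adult, beside the 4.55% and 1.55% of all regions. Matn2, which encodes matrilin-2, had 5 regions that rose (13.3 ± 0.866 regions called in adults, 19.3 ± 2.75 in litters), and Ltbp1, a latent TGF-beta binding protein, also had 5 (23.1 ± 2.47 and 28.6 ± 4.02). At 12 of the 58 loci litters were clear of adults (against 13.9% of all genes), and at 2, Col22a1 and Mfap2, adults were clear of litters (against 5.19%). Col22a1 encodes a collagen of the muscle-tendon junction.

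Markers of the cell types that make matrix were counted in the same way. The 10 fibro-adipogenic and fibroblast markers had 60.3 ± 1.75 of 166 regions called in adults and 60.8 ± 6.60 in litters (SD, n = 3, libraries 53 to 71 and 45 to 72). Of 65 tested regions 1 (1.54%, against 4.55% of all) rose at E18.5 and 2 (3.08%, against 1.55%) were higher in the adult. The 5 tendon markers, which include the member Fmod, had 10.7 ± 0.946 and 12.8 ± 1.42 of 36 regions, and the 5 cartilage markers 23.3 ± 5.38 and 28.4 ± 6.13 of 86. Immune markers gave 18.7 ± 2.70 and 24.9 ± 3.62 of 72, and Schwann cell markers 17.3 ± 1.53 and 19.8 ± 1.18 of 48. Endothelial markers gave 45.3 ± 0.520 and 49.4 ± 7.94 of 136, and smooth muscle and pericyte markers 40.6 ± 4.65 and 45.6 ± 6.79 of 127. No locus in these lists was without a call at either stage. The part of these cell types in the differences above was not tested.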

How the data were processed

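Open chromatin was measured in 24 libraries, 3 of each of 4 muscles at each of 2 stages. The authors deposited 1 peak list per library, whose columns hold peak positions on mm10 and no score, count or signal. Per the submitters' processing notes, MACS2 2.1.1, Bowtie2 2.4.4, bedtools 2.25.0 and Trimmomatic 0.39.0 were among the tools. Thresholds, read shift and depth were not given in the sources used here. List length therefore stood in for depth.

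Peaks were merged where they overlapped or touched, giving 930761 regions, of which 471145 were called in 1 library and left out. An overlap of 1 bp with a peak made a region called in that library. RefSeq GRCm38.p6 gave the gene positions. Fisher's exact tests were adjusted over the 170267 regions whose calls could reach 0.05, and locus counts between fibre biases were compared by exact permutation, adjusted over 32823 genes (Python 3.11.15, scipy 1.17.1); the code was tested on simulated data. Animals were the replicates between stages. Replicate numbers pair the muscles within a stage, since per the labels they mark the same animal or litter; deviations of muscles of the same animal from their group means correlated at a mean r of 0.0247 to 0.375.

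The members, roles and lists were chosen with earlier results of these data known. Values per animal are given, in each of 7 roles, for the 2 members with the most regions past the stage threshold (ties by the larger difference) and would be for members at p under 0.01 between fibre biases, of which the unblocked exact test gave 0. Permuted within animals, Lamb1 and Col6a1 reached 0.00926, the smallest p that allows. Up to 2 regions each are named. Others were named after their values were seen. Alternatives covered list length, overlap, the number of libraries, flanks, scaling, the unit, adjustment and leaving out each animal. No exon annotation was used, so exons, introns and UTRs were not told apart.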

Additional observations from a re-analysis of the deposited data

Results flagged for a closer look

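Among 88 groups of 6 libraries screened for 1 library far from the others, 5 stood apart; chance gives about 5% of groups. In adult slow-biased libraries, vastus intermedius 3 had 6 regions called at Col3a1, where the others had 2 to 3. The same library had 4 at Bgn, where the others had 1 to 2. Soleus 2 had 11 at Loxl2, where the other adult slow-biased libraries had 5 to 6. At Vcan, E18.5 vastus intermedius 3 had 2 regions, against 4 to 5 in the other slow-biased libraries, and E18.5 gastrocnemius 1 had 6, against 3 to 4 in the other fast-biased ones.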

How the results depend on the processing

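Beside 47 regions higher at E18.5, 5 higher in the adult, 3 and 0 fully separated, 16 loci with litters above and 2 with adults above, and 7 and 0 loci with fewer or more calls in adult slow-biased libraries, the alternatives gave the following. Cutting lists at random to equal length gave 6 and 0 regions, 0 separated, 0 loci with adults above, and 0 and 1 by fibre bias. Requiring calls to cover 50% of a region gave 36 and 3 regions, of which 12 were among the 47, 0 loci with adults above, 2 loci lower in slow-biased adults and 1 at E18.5, and raised the stage ratio from 1.31 to 1.74. The ratio over all regions in that setting is not given here, so the member excess cannot be judged from it. Keeping regions in at least 4 libraries gave 1 locus with adults above and 1 lower in slow-biased E18.5 libraries. Without flanks these were 1 and 1, with 3 lower in slow-biased adults. With 50 kb flanks, which take in more regions per locus, there were 76 and 9 regions, 0 loci with adults above and 1 lower in slow-biased E18.5 libraries. Scaling to called regions gave 1 and 1 by fibre bias, animals as units 52 and 9 regions with 34 of the 47 among them, and adjustment over all kept regions 31 at E18.5. Blocking by replicate number (pairing within animals) gave 5 loci in place of 7 and changed no other call. Of settings added after seeing the data, the first 115333 peaks of each list in file order gave 8 adult regions, 1 locus with adults above and 0 lower in slow-biased adults. Adults 2 and 3 against litters 2 and 3 gave 5 and 0 regions, 5 separated, and 0 and 1 by fibre bias, and turned Lama2 to -0.375 and Bgn to -0.875. Leaving out 1 animal gave 19 to 58 regions at E18.5, 3 to 5 in the adult, 3 to 7 and 0 to 1 separated, 15 to 25 loci with litters above, 1 to 2 with adults above, 0 to 7 lower and 0 to 1 higher in slow-biased adults, 0 to 1 lower at E18.5 and a ratio of 1.21 to 1.44; the Bgn difference ran from -0.708 without litter 1 to 1.67 without litter 3. The cause of these changes was not tested. Except where given above, shares over all regions or genes in these settings are not given here. Such counts therefore cannot be set against a background. Read depth is unknown, which limits what a missed call means.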
